A study of Mus musculus with 12 samples.

Results

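The distal part of mouse chromosome 7 holds a cluster of imprinted genes that runs from H19 and Igf2 through Ascl2 to Kcnq1, Kcnq1ot1, Cdkn1c, Slc22a18 and Phlda2. The islands of H3K27me3, the trimethylated form of lysine 27 of histone H3, that overlap chr7:149750000-150760000 (mm9) were taken from each deposited list. They numbered 72 of 81097 islands over 8 lists, and all 8 named genes are described. Chromatin immunoprecipitation and sequencing had been done in small-intestinal epithelium of mixed C57BL/6 CD1 mice. Sorted EpCAM+ epithelium came from embryos at E12.5 and at E14.5. Lgr5+ stem cells (ISC) and enterocytes (AE) came from P60 males carrying Lgr5EGFP-Cre-ERT, an allele that marks the stem cells with a fluorescent protein. CD31+ and CD45+ cells were gated out, and each population gave 2 libraries. The files hold no expression values, so the sorted cell types could not be checked against markers, and they do not separate the maternal from the paternal chromosome.

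In an imprinted cluster, only the maternal or only the paternal copy of a gene is active. H19, a long noncoding RNA of the maternal copy, and Igf2, a fetal growth factor of the paternal copy, share enhancers and a control region between them. Kcnq1ot1 is a long noncoding RNA of the paternal copy that silences neighbours in cis, among them Cdkn1c, an inhibitor of cyclin-dependent kinases, and in the mouse placenta this silencing involves the Polycomb complexes that place H3K27me3. Ascl2, a basic helix-loop-helix factor imprinted in the placenta, is a Wnt target gene that maintains Lgr5+ stem cells of the intestine.

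Of the named genes, the promoter windows with the most CpG pairs are shown because dense CpG is a usual feature of DNA that Polycomb marks in mammals. Of the 8 genes, 5 had an entry in the RefSeq promoter table (GRCm38.p6), with 8 promoter windows of 300 bases in all. H19, Kcnq1 and Cdkn1c had none. The windows of Phlda2 and Ascl2 and 1 of the 4 windows of Igf2 held 26, 23 and 24 CpG pairs, against a median of 7 over 32851 windows. Their positions are on GRCm38.p6, all on the minus strand, and are not on the scale of the islands. CpG pairs are in capitals.
Ascl2, chr7:142969215-142969514: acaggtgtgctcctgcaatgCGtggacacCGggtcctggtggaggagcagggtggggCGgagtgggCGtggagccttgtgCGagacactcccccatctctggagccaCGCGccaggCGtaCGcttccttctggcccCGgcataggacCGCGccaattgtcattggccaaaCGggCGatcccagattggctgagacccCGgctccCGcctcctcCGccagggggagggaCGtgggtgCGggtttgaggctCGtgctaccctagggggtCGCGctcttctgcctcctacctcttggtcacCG
Phlda2, chr7:143502475-143502774: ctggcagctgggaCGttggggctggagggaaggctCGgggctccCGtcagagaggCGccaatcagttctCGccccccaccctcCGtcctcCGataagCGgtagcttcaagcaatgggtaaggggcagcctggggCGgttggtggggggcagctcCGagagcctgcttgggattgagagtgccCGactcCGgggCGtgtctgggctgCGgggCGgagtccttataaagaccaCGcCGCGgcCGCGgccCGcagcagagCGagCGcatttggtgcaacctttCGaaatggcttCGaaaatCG
Igf2, chr7:142658755-142659054: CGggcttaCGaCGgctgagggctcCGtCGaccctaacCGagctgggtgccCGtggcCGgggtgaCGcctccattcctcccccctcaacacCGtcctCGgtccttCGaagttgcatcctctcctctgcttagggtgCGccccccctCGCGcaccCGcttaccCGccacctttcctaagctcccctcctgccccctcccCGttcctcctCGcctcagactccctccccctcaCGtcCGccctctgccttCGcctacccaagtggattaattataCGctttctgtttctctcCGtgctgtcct

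The other windows held fewer CpG pairs. Igf2 had further windows with 2, 7 and 14 pairs, the Kcnq1ot1 window had 9 and the Slc22a18 window 2. Of the 8 windows, 5 held more than the median of 7. Ascl2, Phlda2 and the shown Igf2 window stood at the 79.2, 83.8 and 80.8 percentile of all windows. The lists carry no gene names, and gene positions on mm9 were known only to about 10 kb (H19 near 149.76 Mb, Igf2 149.84, Ascl2 150.15, Kcnq1 with Kcnq1ot1 150.29 to 150.61, Cdkn1c 150.64), so whether an island covers a promoter is not given.

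H3K27me3 was called at Igf2 and at Cdkn1c in all 8 libraries, at Ascl2 in 7, in the end of the region with Slc22a18 and Phlda2 in 6, in the Kcnq1 interval in the 4 embryonic libraries alone, and at H19 in 2 adult libraries. Each count is over a segment that reaches 25 kb to either side of the listed position (for H19, on the left only to the start of the region), over the Kcnq1 interval as listed, or over the 95 kb between the Cdkn1c segment and the end of the region. Slc22a18 and Phlda2 have no listed position of their own. The start of Slc22a18 may lie in the Cdkn1c segment, and calls near it would then count under Cdkn1c. Most of the region carried no island. Length outside every list came to 659.4 kb of 1010 kb, and 15.6 kb was covered in all 8 libraries. In bins of 200 bp, that was 4.45% of those called in the region, beside 2.96% in the genome. Genome segments of the same lengths were not counted, so whether the segment counts are unusual is not given.

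**Figure D1:**
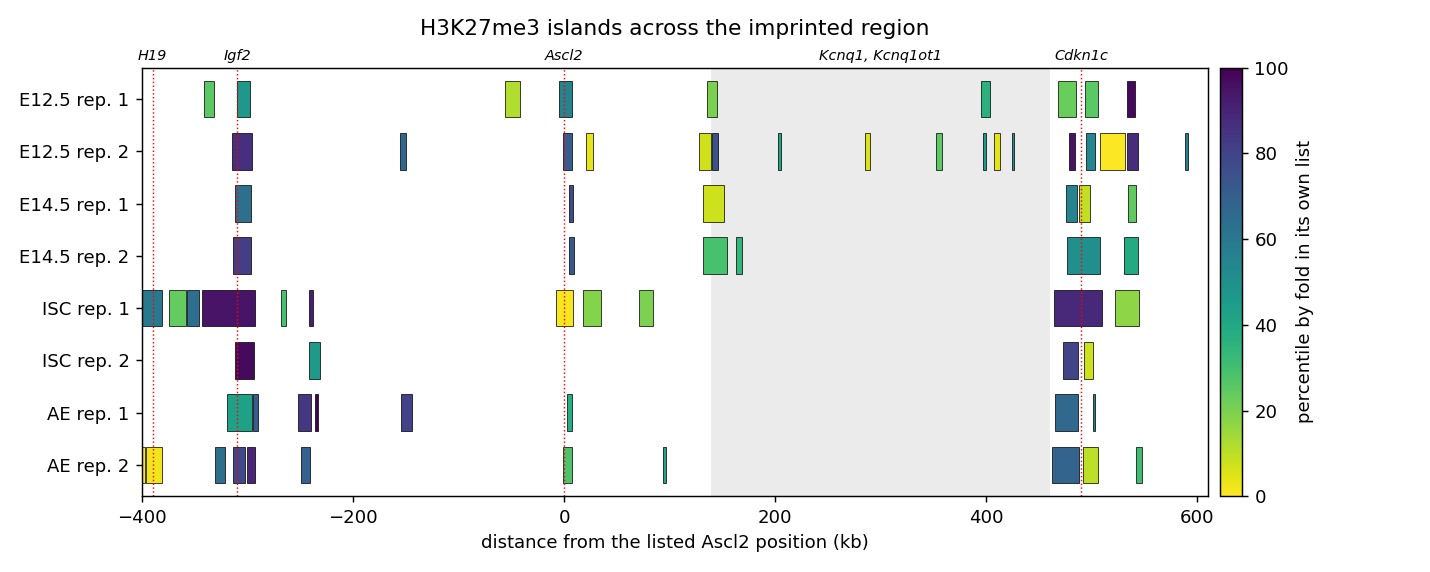
Islands of the 8 libraries (rows) along the region, plotted in kb from the listed Ascl2 position. Colour gives the percentile of an island by fold (ChIP over control reads) within its own list, dotted lines the listed positions of H19, Igf2, Ascl2 and Cdkn1c, and grey the Kcnq1 interval. Every row has islands at Igf2 and Cdkn1c, while the grey interval holds islands of E12.5 and E14.5 libraries alone.

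The islands in the region numbered 9 and 17 in E12.5 libraries, 6 and 6 in E14.5 libraries, 11 and 4 in ISC libraries and 8 and 11 in AE libraries. They covered 101.4 and 131.6 kb in E12.5 libraries, 69.4 and 94.8 kb in E14.5 libraries, 220.6 and 52.0 kb in ISC libraries and 82.0 and 110.8 kb in AE libraries. The ISC replicates thus lay farthest apart, with the most and the least covered length of all libraries, and the whole ISC lists covered 241 and 60.8 Mb. The covered share of the region exceeded that of the genome (up to the last island of each chromosome) in every list, by 2.24 times in ISC replicate 2 to 4.53 times in E12.5 replicate 2. Among 2209 windows of 1.01 Mb with an island, its covered length stood between the 81.8 percentile (ISC replicate 1) and the 96.1 percentile (E12.5 replicate 2).

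Adult libraries covered 116 ± 73.5 kb of the region and embryonic libraries 99.3 ± 25.6 kb (SD, n = 4 each), and the ranges overlapped. The difference of 17.1 kb gave an exact two-sided permutation p of 0.8286 (adjusted p = 1 over 2209 windows by Benjamini-Hochberg, smallest possible unadjusted p 0.0286). Adult and embryonic ranges were separate in 8.69% of these windows. The sign depends on ISC replicate 1, without which the difference was -17.7 kb, and on list length, since at equal covered length of all lists it was -15.4 kb. As a share of the whole list, the region made up 0.100% ± 0.0159 of the adult lists and 0.128% ± 0.0456 of the embryonic lists (SD, n = 4 each, exact permutation p = 0.314). The share was 0.162% and 0.173% in E12.5 lists, 0.0915% and 0.0869% in E14.5 lists, 0.0914% and 0.0856% in ISC lists and 0.103% and 0.122% in AE lists. The E12.5 lists lay above all adult lists, and the E14.5 lists within the adult range. Total covered length of the region therefore did not separate adult from embryonic libraries beyond their spread, and the populations were compared position by position.

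At Igf2, which drives fetal growth, a stretch of 7.6 kb (chr7:149840201-149847800) and another of 3.0 kb (chr7:149849001-149852000) lay in islands of all 8 libraries. Islands covered 14.6 and 18.8 kb of the 50 kb segment in E12.5 libraries, 15.6 and 17.2 kb in E14.5 libraries, 42.4 and 18.6 kb in ISC libraries and 28.0 and 28.6 kb in AE libraries. Adult libraries covered 29.4 ± 9.80 kb of it and embryonic libraries 16.6 ± 1.84 kb (SD, n = 4 each). ISC replicate 2, at 18.6 kb, lay just inside the embryonic range, which reached 18.8 kb.

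The authors' fold of ChIP over control reads in the Igf2 island was 1.37 and 2.45 in E12.5 libraries, 1.75 and 2.43 in E14.5 libraries, 2.32 and 2.18 in ISC libraries and 1.40 and 1.79 in AE libraries. Counting error alone gave 95% exact binomial intervals from 1.15 to 1.64 for the lowest of these (E12.5 replicate 1, 229 ChIP and 287 control reads) and from 2.17 to 2.76 for the highest (E12.5 replicate 2, 687 and 448 reads). The lists record no molecular identifiers, so all such intervals cover counting error only. The fold is scaled within a list, so islands were compared by rank. The island over the longer stretch stood at the 46.8 and 86.1 percentile of its list in E12.5 libraries, 64.0 and 81.4 in E14.5 libraries, 94.6 and 97.6 in ISC libraries and 42.9 and 78.3 in AE libraries. In AE replicate 2 a separate island (149849001 to 149856600) covered the shorter stretch, with a fold of 2.04 and at the 89.7 percentile. An Igf2 island was the first of the region by fold in E14.5 replicate 2, in both ISC lists and, with that separate island, in AE replicate 2.

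Borders at Igf2 differed on both sides. The island over the shared stretch began between 149807001 (ISC replicate 1) and 149840201 (E12.5 replicate 1). Outside ISC replicate 1, the earliest start was 149830201 (AE replicate 1). Separate islands further left were called in E12.5 replicate 1 (149809001 to 149817800) and AE replicate 2 (149819001 to 149828200). On the right, adult coverage ran on to 149857400 and 149856200 in ISC and, in a second island, to 149859400 and 149856600 in AE, while embryonic islands ended between 149852000 and 149853800. The length that every adult list and no embryonic list held came to 1.0 kb here (chr7:149855201-149856200) with another 0.2 kb (chr7:149853801-149854000). Over the region, adult-alone length was 1.6 kb of the 350.6 kb called in any library, or 0.456% of bins of 200 bp, beside 1.2% of all bins called in the genome. It was 4.2 kb without E12.5 replicate 1, 4.4 kb without ISC replicate 2 and 2.8 kb without either AE replicate.

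At H19, islands were called in ISC replicate 1 and AE replicate 2, with no island in the other 6 libraries. They covered 28.2 kb and 17.8 kb of the 35 kb segment. The fold was 1.53 in ISC replicate 1 (1023 ChIP and 853 control reads, 95% interval 1.40 to 1.68) over 34.4 kb that began before the region, at the 59.7 percentile of the list. A second island of that library (149775801 to 149791400) had a fold of 1.32 and stood at the 24.0 percentile. In AE replicate 2 it was 1.204 for an island of 15.2 kb (409 and 392 reads, 95% interval 1.05 to 1.39) and 1.13 for its neighbour of 24.0 kb, at the 2.28 and 0.0886 percentile of that list. No H19 call was shared by the replicates of a population.

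Between the Igf2 and Ascl2 segments, islands were called in all 4 adult libraries and in 2 of the 4 embryonic libraries, both of E12.5. From 149898201 to 149918600 the islands came from the adult libraries alone, and those of all 4 met in 0.4 kb (chr7:149908401-149908800). The islands over or next to it spanned 149908001 to 149912000 in ISC replicate 1, 149908401 to 149918600 in ISC replicate 2, 149898201 to 149910000 in AE replicate 1 and 149900801 to 149908800 in AE replicate 2. Their folds were 2.10 and 1.42 in ISC and 1.84 and 1.67 in AE. A further island of AE replicate 1 (149913801 to 149917000) had the highest fold of the region in any list, 3.43, from 115 ChIP and 23 control reads (95% interval 2.18 to 5.62). Its control density was 7.19 reads per kb, against a median of 16.3 over the islands of that list. The control density of the neighbouring AE islands was 11.9 and 12.2 reads per kb, and its part in their fold was not tested.

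At Ascl2, H3K27me3 islands had a low rank by fold, or were missing, in the adult lists and stood at a middle to high rank in the embryonic lists. A stretch of 3.2 kb (chr7:150154401-150157600) was covered in 7 of 8 libraries, the exception being ISC replicate 2, which had no island in the Ascl2 segment. Islands covered 12.6 and 12.4 kb of the 50 kb segment in E12.5 libraries, 4.2 and 5.2 kb in E14.5 libraries, 23.6 and 0 kb in ISC libraries and 4.8 and 8.8 kb in AE libraries. Covered length overlapped between adult libraries (9.30 ± 10.2 kb) and embryonic libraries (8.60 ± 4.52 kb; SD, n = 4 each). With a false discovery rate (FDR) of 1e-10 or less, or a fold of 1.5 or more, 3 libraries kept an island here, E12.5 replicate 2 and both of E14.5. At equal covered length of all lists, 6 libraries kept one, and neither ISC library did.

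The fold at Ascl2 was 1.41 and 1.96 in E12.5 libraries, 2.02 and 2.10 in E14.5 libraries, 1.17 in ISC replicate 1, and 1.37 and 1.40 in AE libraries. Within their own lists these islands stood at the 55.1, 70.7, 77.7 and 72.0 percentile in the embryonic libraries in that order. In ISC replicate 1 the island was at the 0.939 percentile and last by fold of the 11 islands in the region, and in AE the islands were at the 38.3 and 28.0 percentile. Every adult library thus ranked the site below every embryonic library, with the missing call counted as rank 0. The same held for 75 of 2725 stretches called in 7 or more libraries, or 2.75%, and the reverse for 62. This site was singled out after its values were seen, and no test was made. The folds of E12.5 replicate 1 and of AE replicates 1 and 2 were close, with 95% intervals of 1.17 to 1.68, 1.11 to 1.71 and 1.16 to 1.69. Their order is thus one of rank within the lists, not of fold beyond counting error. The ISC replicate 1 island spanned 16.2 kb, against 4.2 kb in E14.5 replicate 1, and its fold averages over that length (412 ChIP and 450 control reads, 95% interval 1.02 to 1.34). Control density of the Ascl2 island was 27.8 reads per kb in ISC replicate 1, against a list median of 20.9. In AE it was 26.9 and 23.6, against 16.3 and 18.6. In E12.5 it was 22.2 and 23.5, against 20.9 and 20.8, and in E14.5 24.0 and 22.1, against 21.3 and 21.5. The part of control density in these ranks was not tested.

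Borders at Ascl2 differed between the embryonic ages. Both E14.5 islands began at 150154401, while the E12.5 islands began at 150145001 and 150149201. The 5.2 kb between (chr7:150149201-150154400) was covered in no E14.5 library and in both E12.5 libraries. On the right, the E14.5 islands ended at 150158600 and 150159600, against 150157600 and 150157800 at E12.5. In AE, the islands began at 150153001 and 150149001 and both ended at 150157800.

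**Figure D2:**
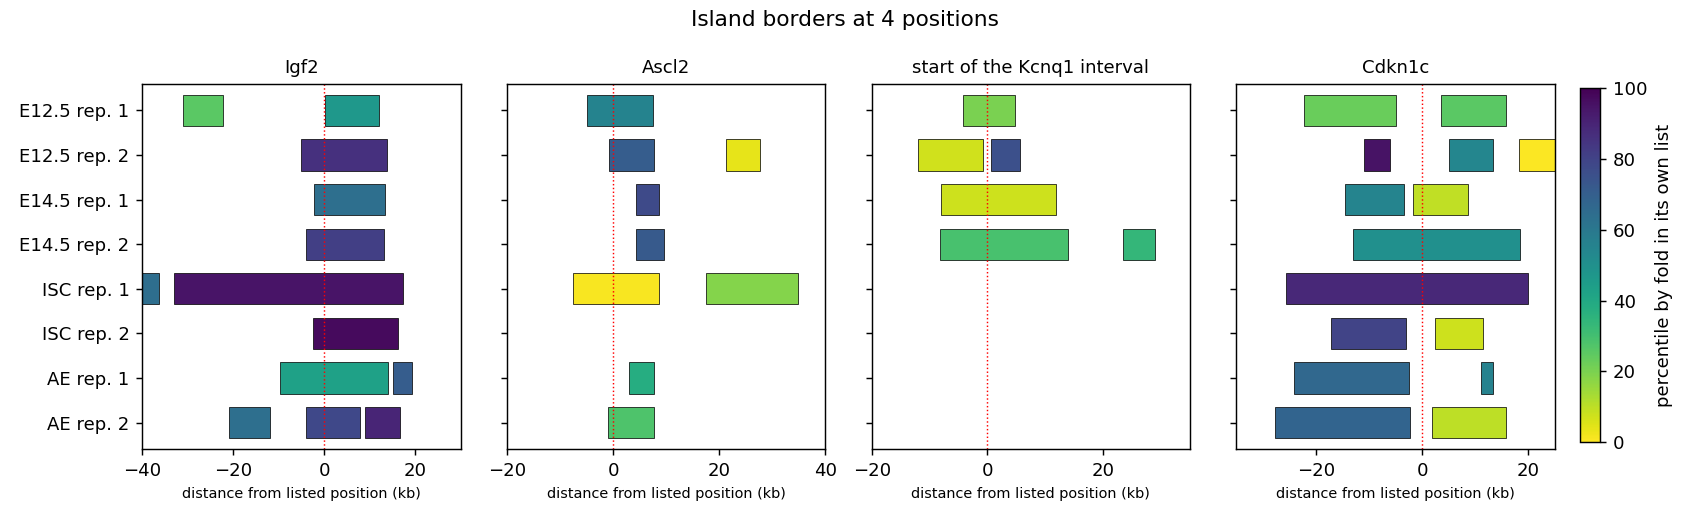
Islands of each library (rows) near 4 listed positions, in kb from each position, coloured by percentile of fold within their own list; bars at a panel's edge run on beyond it. The E14.5 bars at Ascl2 start to the right of the E12.5 bars, the Kcnq1 panel has no bar in ISC or AE, and at Cdkn1c every library is covered left of the position.

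Kcnq1 encodes a voltage-gated potassium channel. At the start of its interval, no adult library had an island and all 4 embryonic libraries had 1 or more. No adult island touched any of the 320 kb listed for Kcnq1 and Kcnq1ot1, of which embryonic lists covered 12.8 and 30.0 kb at E12.5 and 11.8 and 19.6 kb at E14.5. Around the start, the E12.5 islands were 150285801 to 150294800 in replicate 1, and 150278001 to 150289200 with 150290601 to 150295600 in replicate 2. The E14.5 islands ran from 150282001 to 150301800 and from 150281801 to 150304000. In the adult lists the nearest islands on the left ended at 150234400 in ISC (replicate 1) and at 150246400 in AE (replicate 2).

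The length that no adult list and every embryonic list held consisted of 3.4 kb (chr7:150285801-150289200) and 4.2 kb (chr7:150290601-150294800) at this start, and was found nowhere else in the region. It made up 2.17% of the bins called in the region, beside 0.38% of the bins called in the genome. Embryonic-alone length over the whole region was 14.2 kb without ISC replicate 1 and 12.2 kb without E12.5 replicate 1. The rise without ISC replicate 1 did not lie at this start, where no adult list had an island. Among adult lists, that list alone covered 6.6 kb at the Phlda2 end held by all embryonic lists. Over the 4.2 kb at the Kcnq1 start, the fold at E12.5 was 1.29 and 2.08 (152 ChIP and 203 control reads, 177 and 136 reads). At E14.5 it was 1.25 and 1.45 (586 and 503 reads, 462 and 557 reads). By fold these islands stood at the 20.0, 75.6, 7.69 and 29.0 percentile of their lists. With an FDR of 1e-10 or less, or a fold of 1.5 or more, no embryonic-alone length was left (0 kb). At equal covered length there were 14.2 kb over the region. Shortening the lists only removes islands, so that rise did not lie at the Kcnq1 start either. A position without an island may still carry a lower level of the mark.

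Further inside the interval listed for Kcnq1 and Kcnq1ot1, islands were called at E12.5 and, in 1 library, at E14.5. E12.5 replicate 2 had islands at 150352401, 150435401, 150503001, 150546801, 150557601 and 150574201, each 2.6 to 6.0 kb long with folds of 1.31 to 1.68. E12.5 replicate 1 had 1 such island, from 150545401 to 150553400 with a fold of 1.33, and the replicates met in 3.0 kb (chr7:150546801-150549800). E14.5 replicate 2 had an island from 150313401 to 150319000, with a fold of 1.49. The place of Kcnq1ot1 within the interval was not listed, so no island is assigned to it.

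At Cdkn1c, which restrains cell division, islands of all 8 libraries covered a stretch of 5.0 kb (chr7:150629001-150634000) on the left of the listed position. Islands covered 29.4 and 20.2 kb of the 50 kb segment in E12.5 libraries, 21.6 and 31.4 kb in E14.5 libraries, 45.0 and 23.2 kb in ISC libraries and 24.2 and 36.8 kb in AE libraries. Adult libraries covered 32.3 ± 10.5 kb and embryonic libraries 25.7 ± 5.57 kb (SD, n = 4 each), and the ranges overlapped.

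The island over that stretch had a fold of 1.29 and 3.18 in E12.5 libraries, 1.62 and 1.67 in E14.5 libraries, 2.00 and 1.67 in ISC libraries and 1.57 and 1.66 in AE libraries. E12.5 replicate 2 stood apart, with a short island of 5.0 kb that was its first of the region by fold (247 ChIP and 124 control reads, 95% interval 2.55 to 3.97). In the other E12.5 library the island was 17.2 kb long and its interval was 1.11 to 1.51. Within the lists it stood at the 23.0 and 95.2 percentile in E12.5 libraries, 55.1 and 50.3 in E14.5 libraries, 89.0 and 80.0 in ISC libraries and 66.8 and 68.1 in AE libraries. The replicates of E14.5, ISC and AE each lay closer together than those of E12.5.

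A second group of islands lay on the right of the Cdkn1c position. The 3.6 kb from 150645001 to 150648600 was covered in every library other than AE replicate 1, whose island began at 150651001. In E14.5 replicate 2 and ISC replicate 1, a single island of 31.4 kb and of 45.6 kb joined both groups. A gap separated them in the other lists. The right-hand island there had the lower fold, for example 1.70 against 3.18 in E12.5 replicate 2 and 1.25 against 1.67 in ISC replicate 2, except in E12.5 replicate 1 (1.30 against 1.29).

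**Figure D3:**
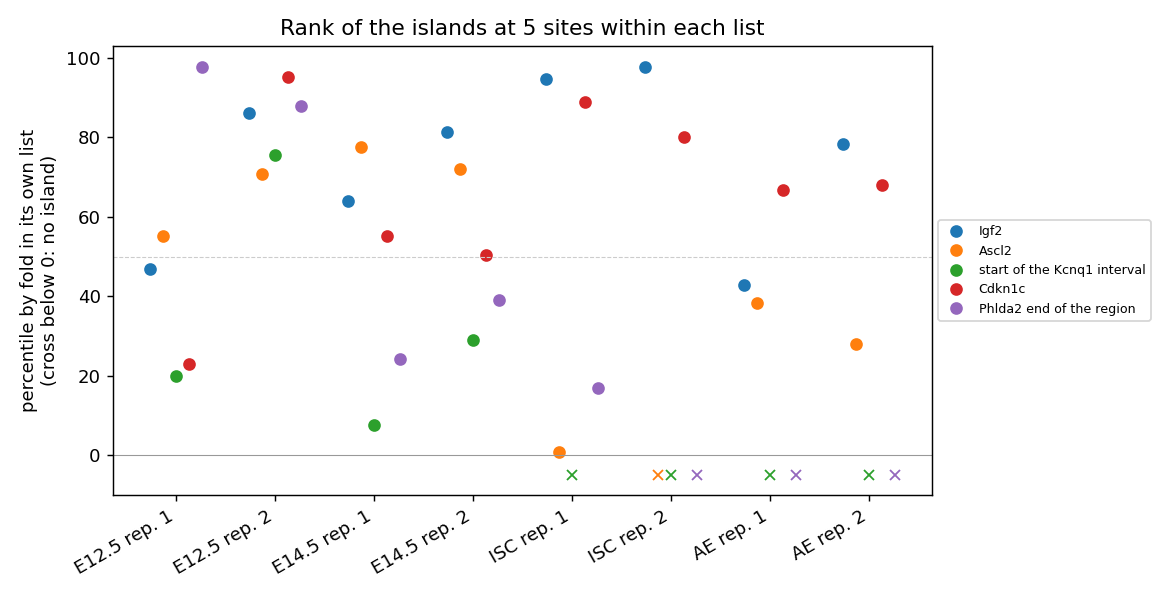
Percentile by fold within its own list of the island over 1 stretch at each of 5 sites, for each library. Crosses below 0 stand for no island. Stretches were chosen as covered in all libraries (Igf2, Cdkn1c) or in 7 or more (Ascl2). The Kcnq1 start was chosen as covered in embryonic libraries alone, and the Phlda2 end as covered in all embryonic libraries. Ascl2 lies at 38.3 or below, or is not called, in the adult libraries and between 55.1 and 77.7 in the embryonic ones. Igf2 reaches 94.6 and 97.6 in ISC. The Kcnq1 start is crossed out in all adult libraries by its choice.

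Towards Slc22a18, a membrane transporter, and Phlda2, which limits growth of the placenta, 1 adult library covered the longest stretch held by all 4 embryonic libraries. Islands covered 7.2 and 31.0 kb of the last 95 kb in E12.5 libraries, 8.2 and 13.2 kb in E14.5 libraries, 22.8 and 0 kb in ISC libraries and 0 and 5.8 kb in AE libraries. That stretch was chosen as common to the embryonic libraries and was 6.6 kb long (chr7:150684401-150691000). How often adult libraries cover such stretches in the genome was not computed. ISC replicate 1 covered it with an island of 22.8 kb, ISC replicate 2 and AE replicate 1 had none in this segment, and the AE replicate 2 island began beyond it at 150692401. At equal covered length of all lists, 4 libraries kept an island in this segment, the embryonic ones alone.

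The fold over that stretch was 2.04 and 2.54 in E12.5 libraries, 1.35 and 1.54 in E14.5 libraries, and 1.28 in ISC replicate 1. In E12.5 replicate 1 this island (173 ChIP and 146 control reads, 95% interval 1.62 to 2.56) was the first of the region by fold and stood at the 97.7 percentile of the list. It stood at 87.8 in E12.5 replicate 2, and at 24.3 and 39.2 at E14.5. Both E14.5 lists ranked it below both E12.5 lists, as they did 17.0% of the 2623 stretches called in all 4 embryonic libraries. The reverse order held for 537 of these stretches, and no test was made. ISC replicate 1 had its island over the 6.6 kb at the 16.8 percentile. A further island of E12.5 replicate 2 (150658201 to 150681800) was the longest of that list in the region at 23.6 kb and the last by fold, at 1.25.

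**Figure D4:**
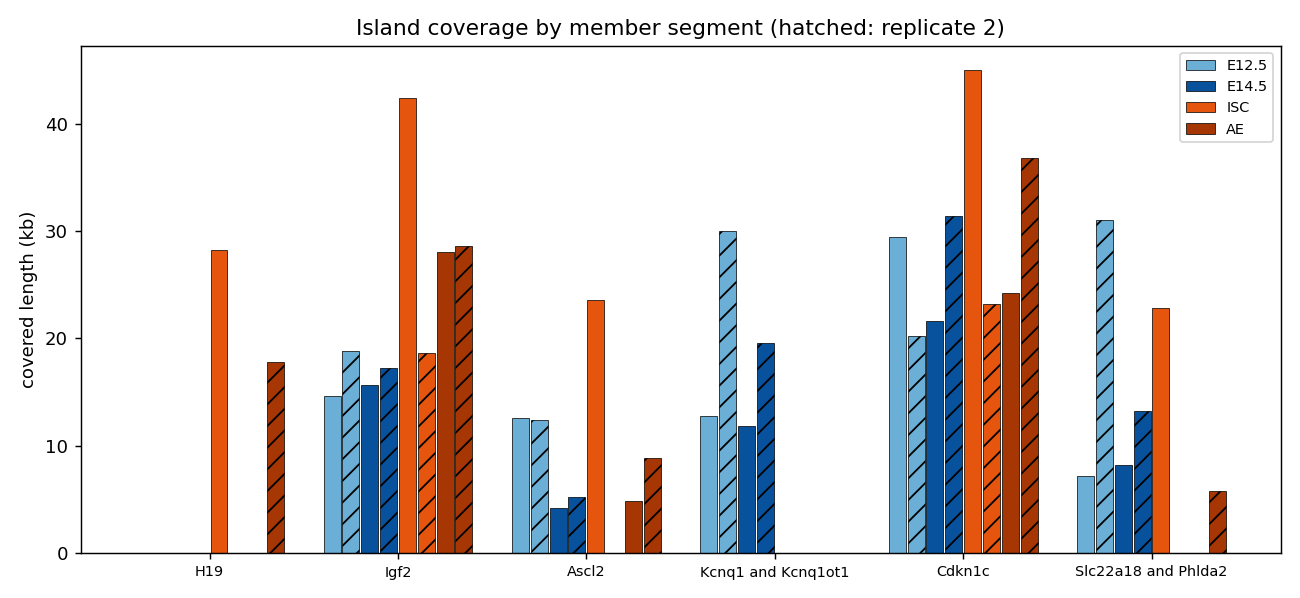
Covered length (kb) in the segment of each member for the 8 libraries, replicate 2 hatched. Bars are present in every library at Igf2 and Cdkn1c, and in ISC replicate 1 and AE replicate 2 alone at H19. The interval listed for Kcnq1 and Kcnq1ot1 has bars in E12.5 and E14.5 alone. The calls common to all embryonic libraries there lay at its start.

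Step by step, a bin was called gained if the later population had it in each of its libraries and the earlier population in none, and lost the other way round. No exact permutation test of 2 against 2 libraries can pass the threshold of 0.05. At E14.5 against E12.5, 14 kb were gained, 6.67% of the bins called in either age in the region beside 9.56% in the genome. They lay at the start of the Kcnq1 interval (6.2 kb), at Cdkn1c (5.4 and 1.6 kb) and at Ascl2 (0.8 kb). The 8.2 kb lost, 3.905% beside 1.36% in the genome, were 5.2 kb at Ascl2 and 3.0 kb within the Kcnq1 interval. The gain was 24.0 kb without E12.5 replicate 2 and 28.4 kb without E14.5 replicate 1. The loss was 73.2 and 48.4 kb without E12.5 replicate 1 or 2, and 13.6 kb without E14.5 replicate 2.

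In ISC against E14.5, the loss was a single stretch of 19.8 kb at the start of the Kcnq1 interval (chr7:150282001-150301800), 7.73% of the bins called in the region beside 4.14% in the genome. The gain of 9.0 kb, 3.52% beside 5.97%, fell at Igf2 (2.8 kb), between Igf2 and Ascl2 (3.6 kb) and at Cdkn1c (2.6 kb). In AE against ISC, 7.2 kb were gained (2.80% beside 0.921%) and 2.0 kb lost (0.779% beside 4.19%). Both lay between Igf2 and Ascl2, in the gain from 149900801 to 149908000 and in the loss from 149910001 to 149912000. Neither touched the segment of a member. The ISC against E14.5 lengths changed when an ISC list was left out, with 15.6 kb gained and 36.4 kb lost without ISC replicate 1, and 152.8 kb gained without ISC replicate 2. The AE against ISC lengths changed too, with 24.0 kb gained and 5.4 kb lost without ISC replicate 1, and 115.8 kb lost without ISC replicate 2. Without AE replicate 1 or 2 that gain was 15.0 and 21.8 kb and the loss 4.4 and 11.8 kb.

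Covered in all 8 libraries were 4.45% of the bins called anywhere in the region, beside 2.96% in the genome. They lay at Igf2 (7.6 and 3.0 kb) and Cdkn1c (5.0 kb). With an FDR of 1e-10 or less, or a fold of 1.5 or more, 0 kb was left, since E12.5 replicate 1 then had no island in either segment. AE replicate 1 also fell under the fold limit over the Igf2 stretch, at 1.40. Called in a single library were 45.0% of the called length of the region, against 54.9% in the genome.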

How the data were processed

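Each of the 8 ChIP libraries came as 1 deposited list of islands without a header, called per replicate against 1 input per population. Per the submitters' processing notes, bcl2fastq 1.8.4, Bowtie 1.1.2, SAMtools 1.2 and SICER 1.1 were used with mm9. ChIP and control read counts per island are deposited as whole numbers, not normalized. The fold ratio, p-value and FDR (at most 0.01) are the authors' own, and reads divided by fold gave 1 scale factor per list. Replicates shared control counts in every identical interval (30, 52, 17 and 41 intervals). ChIP reads inside islands numbered 1171968 to 6627853 per library; total depth is not known, and no count test across libraries was possible.

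Islands were painted on bins of 200 bp with Python 3.11.15, numpy 2.4.6 and scipy 1.17.1, after tests on simulated data with known answers. Coordinates are 1-based. Adult (ISC, AE) and embryonic (E12.5, E14.5) covered lengths were tested by exact permutation (two-sided, 35 splits), with libraries as units. Biological duplicates of a population therefore count separately. Intervals of the fold are 95% Clopper-Pearson intervals of ChIP among all reads, rescaled. Windows of 1.01 Mb were laid so that the region was 1 of them. The members, positions and segments were chosen with earlier results of these data known. All members are named; single islands are those over a member's segment, the longest and the highest by fold of each list, and others named after their values were seen. Alternatives were stricter FDR or fold, equal covered length (top islands by p-value up to 60.8 Mb), other flanks and each library left out.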

Additional observations from a re-analysis of the deposited data

How the results depend on the processing

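The adult minus embryonic covered length was 17.1 kb, and stayed above 0 with an FDR of 1e-10 or less (23.6 kb, exact permutation p = 0.457) and a fold of 1.5 or more (24.1 kb, exact permutation p = 0.457). At equal covered length it was -15.4 kb (exact permutation p = 0.314). With libraries left out it ran from -17.7 to 38.5 kb, and as a percent of the list from -0.0419 to -0.0132. Permuted within replicate numbers (replicate block), p was 0.833 at the same 17.1 kb. The bins gained and lost are the same set under pairing, and same-numbered replicates did not deviate together (correlations -0.0336 to 0.0266).

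With an FDR of 1e-10 or less, and with a fold of 1.5 or more, adult-alone length was 2.8 and 3.6 kb, embryonic-alone length 0 kb in both and length in all libraries 0 kb in both. E14.5 against E12.5 had 5.4 kb gained and 0 kb lost in both. ISC against E14.5 had 5.4 kb gained and 4.2 kb lost in both. That loss lay at Ascl2 and none of it at the start of the Kcnq1 interval. There the island of E14.5 replicate 1 (fold 1.25) missed both limits. AE against ISC had 0 and 7.2 kb gained and 0 and 1.2 kb lost. Libraries with an island then numbered 1 at H19 and 3 at Ascl2 in both, 2 and 1 in the Kcnq1 interval, and 3 at Slc22a18 and Phlda2 in both. E12.5 replicate 1 kept 9.08 and 16.5 Mb of its list, so fewer of its islands could be counted.

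At equal covered length, embryonic-alone length over the region was 14.2 kb. ISC against E14.5 had 5.4 kb gained and 32.2 kb lost, the loss then also at Ascl2 and at the Phlda2 end. AE against ISC had 12.4 kb gained and 0 kb lost. No library (0) had an island at H19, 6 had one at Ascl2 and 4 at Slc22a18 and Phlda2. These were all libraries but those of ISC at Ascl2, and the embryonic libraries alone at Slc22a18 and Phlda2. With flanks of 10 kb, 8 libraries had an island at Slc22a18 and Phlda2, whose segment then starts closer to Cdkn1c, and with flanks of 50 kb 3 had one at H19. The other counts of libraries per segment were the same with either flank. In stretches of 5 bins or more, adult-alone length was 1.0 kb. With 1 library left out, adult-alone length was 1.6 to 4.4 kb, embryonic-alone 7.6 to 14.2 kb and all-library length 15.6 to 19.2 kb. E14.5 against E12.5 gave 14 to 28.4 kb gained and 8.2 to 73.2 kb lost (the most without E12.5 replicate 1), and ISC against E14.5 gave 9.0 to 152.8 kb gained (the most without ISC replicate 2) and 19.8 to 36.4 kb lost (the most without ISC replicate 1). AE against ISC gave 7.2 to 24.0 kb gained and 2.0 to 115.8 kb lost (the most without ISC replicate 2). Islands were then in 1 to 2 libraries at H19, 7 at Igf2 and Cdkn1c, 6 to 7 at Ascl2, 3 to 4 in the Kcnq1 interval and 5 to 6 at Slc22a18 and Phlda2. The cause of these shifts was not tested, beyond fewer islands or libraries entering.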

Other observations

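Within the region, the replicates of E14.5 shared most of their covered length, with a Jaccard index (shared over combined length) of 0.700, against 0.447 over the whole genome. The index was 0.283 for E12.5, 0.1998 for ISC and 0.401 for AE, beside 0.202, 0.198 and 0.346 over the genome. Pairs of an adult with an embryonic library had a mean of 0.255 ± 0.0490 (SD, 16 pairs) in the region, beside 0.204 over the genome. Pairs of 1 age class that were not replicates had a mean of 0.341 (8 pairs), beside 0.268. The pairs reuse the same libraries, so the SD is not one of independent units. The length shared by the replicates was 51.4 kb at E12.5, 67.6 kb at E14.5, 45.4 kb in ISC and 55.2 kb in AE.

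Outside the member segments, both E12.5 replicate 2 and AE replicate 1 had an island between Igf2 and Ascl2 at 149994401 to 149999800 and at 149995601 to 150005600, with folds of 1.88 and 1.76 and low control densities of 12.2 and 11.2 reads per kb. E12.5 replicate 1 alone had an island from 150094001 to 150108600, at a fold of 1.26.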
